A study of Mus musculus with 4 samples.

Results

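A set of 10 genes of the transforming growth factor-β (TGF-β) pathway were followed in sorted follicular helper T (TFH) cells. These are the ligand gene Tgfb1, the receptor genes Tgfbr1, Tgfbr2 and Tgfbr3, the signal transducer genes Smad2, Smad3 and Smad4, the inhibitory Smad gene Smad7 and the co-repressor genes Ski and Skil. Members were chosen by name, with earlier results of these data known. All probe sets annotated with exactly 1 of these symbols were taken, which gave 24 of 45037 probe sets and 10 of 18193 measured genes. The probe set with the highest mean over the 4 arrays represented each gene, and the other probe sets are given beside it.

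Spleens were taken at day 8 of infection with the Armstrong strain of lymphocytic choriomeningitis virus (LCMV), and TFH cells were sorted, for which the gate is not described here. The Rictor-null mice carry floxed Rictor alleles and the Cd4-Cre transgene, and the WT mice are littermates with the floxed alleles and no Cre. Rictor is the subunit that defines mTOR complex 2 (mTORC2), and Cd4-Cre deletes floxed alleles in all T cells that have expressed Cd4, CD8 T cells included. Each group holds 2 arrays, each from its own pool of at least 5 mice by the design text, while the legend of the study gives other numbers. The mice were young adults of both sexes, and the labels do not give the ages of the pools. The question addressed here is whether expression of TGF-β pathway genes differed between TFH cells with and without mTORC2.

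TGF-β is secreted in a latent form. Once activated it binds the type II receptor TGFBR2, which recruits and phosphorylates the type I receptor TGFBR1, and betaglycan, encoded by Tgfbr3, presents ligand to them as a co-receptor without a kinase of its own. TGFBR1 then phosphorylates Smad2 and Smad3, which enter the nucleus with Smad4. Smad7 blocks the receptor, and Ski and SnoN (encoded by Skil) bind Smads and recruit co-repressors. In T cells the pathway restrains effector and cytotoxic differentiation and supports regulatory T cells, and in acute viral infection it has been described to favor TFH cells by limiting IL-2 receptor and mTOR signaling.

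Promoters of 5 members were searched in the RefSeq-based promoter table (GRCm38.p6, 250 bases before to 50 after the start site). Those of Tgfbr2, Tgfb1 and Ski are shown because these genes were lower in Rictor-null cells. For Tgfbr3 and Skil, which were lower as well, no promoter entry was found. Capitals mark the Smad box CAGAC on either strand. The Tgfbr2 window lies at chr9:116175314-116175613 on the minus strand, the Tgfb1 window at chr7:25686752-25687051 on the plus strand and the Ski window at chr4:155222486-155222785 on the minus strand.
Tgfbr2: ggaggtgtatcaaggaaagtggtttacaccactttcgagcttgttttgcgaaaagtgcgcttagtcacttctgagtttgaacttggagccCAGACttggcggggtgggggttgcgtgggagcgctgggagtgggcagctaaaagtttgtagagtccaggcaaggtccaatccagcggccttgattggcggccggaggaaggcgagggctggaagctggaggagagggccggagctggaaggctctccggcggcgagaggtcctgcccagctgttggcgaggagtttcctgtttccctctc
Tgfb1: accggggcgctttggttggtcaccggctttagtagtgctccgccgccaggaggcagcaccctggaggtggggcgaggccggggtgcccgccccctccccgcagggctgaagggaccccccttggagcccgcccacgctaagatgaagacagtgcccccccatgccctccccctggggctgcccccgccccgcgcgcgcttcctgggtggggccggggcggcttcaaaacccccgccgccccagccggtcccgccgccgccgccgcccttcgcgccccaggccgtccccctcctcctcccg
Ski: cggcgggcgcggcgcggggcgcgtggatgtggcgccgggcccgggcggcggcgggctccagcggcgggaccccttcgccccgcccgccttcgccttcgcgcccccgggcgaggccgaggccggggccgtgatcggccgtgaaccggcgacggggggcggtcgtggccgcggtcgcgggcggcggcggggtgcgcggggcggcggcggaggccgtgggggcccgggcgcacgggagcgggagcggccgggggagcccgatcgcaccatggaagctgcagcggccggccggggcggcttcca
Tgfbr2 held 1 Smad box and Tgfb1 and Ski held 0, against 49.6% of all 32851 promoters in the table with at least 1. Of the 6 windows of the 5 members, 2 held the box, the other being 1 of the 2 start sites of Tgfbr1. The palindromic Smad element GTCTAGAC, which does not contain the box and is in 0.213% of all promoters, and the FOXO core GTAAACA, which is in 3.65%, were found in 0 of the 6 on either strand. These matches describe letters in a short window and nothing about binding. The Ski window had a GC content of 85.3% and the Tgfb1 window 77.0%, while that of Tgfbr2 was at 59.0%.

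The arrays were checked before the members were compared. Median intensities lay between 19.98 and 20.4 on the 4 arrays, and the arrays of a group correlated at 0.998 in both groups (Pearson's r across probe sets on the log2 scale), against 0.993 to 0.994 between groups. Of 10 T cell markers 9 were measured, all above the median of all probe sets. Of these 9, 5 were lower and 1 higher in Rictor-null cells (7.19% and 12.5% of all genes), with a median log2 difference of -0.26. Their sums were 22557 to 22677 in the Rictor-null and 23684 to 23989 in the WT arrays. The TFH markers Cxcr5, Pdcd1, Bcl6, Icos and Il21 were bright in all arrays, although 7 of 10 TFH markers were lower in Rictor-null cells. Rictor, the targeted gene, was at 267 and 279 in the Rictor-null arrays and at 334 and 303 in the WT arrays in its brightest probe set, and in the other 4 probe sets the log2 differences ran from -0.03 to 0.11. The call of the brightest (log2 difference -0.21, adjusted p = 0.0366 from limma) ended without any 1 of Rictor-null replicate 1, WT replicate 1 and WT replicate 2. In the fit over all probe sets the brightest did not pass (adjusted p = 0.087 from limma). Which exons the probe sets read was not known here, so that they need not check the deletion. The study itself reports undetectable Rictor mRNA in TFH cells sorted from Rictor-null mice. It also reports that stimulation did not raise mTORC2 activity in their CD4 T cells.

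Several TGF-β pathway genes were lower in Rictor-null TFH cells, and none of the 10 was higher by the test. Values were compared on the log2(intensity + 16) scale with limma, with Benjamini-Hochberg adjustment over all 18193 genes and a threshold of 0.05. On it Tgfbr3, Ski, Tgfb1, Tgfbr2 and Skil fell, and Tgfbr1, Smad2, Smad3, Smad4 and Smad7 did not pass. Thus 5 of 10 members were lower, against 7.19% of all genes, and 0 of 10 were higher, against 12.5% of all genes. The members were chosen with earlier results of these data known, so that this count is no independent evidence. Dim genes rarely pass, and all 10 members were above the median intensity. Among the 10695 genes with a probe set above that median, 13.9% were lower and 2484 genes were higher when fitted alone. In that fit the same 5 members passed as lower and 0 as higher. The median log2 difference was -0.17 over the members and 0.0068 over all genes. Tgfbr3 was the 1 member that differed by at least 1.5-fold on this scale. By the one-tailed test of the study's methods 7 members were lower before adjustment and 0 after it, with Tgfbr3 at an adjusted p of 0.0682. Before adjustment the same test called 2231 genes lower and 3143 higher among all 18193 genes. Unadjusted calls were thus common, and the 7 add no independent evidence. In bulk samples fewer cells of a type and less RNA per cell cannot be told apart.

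**Figure D1:**
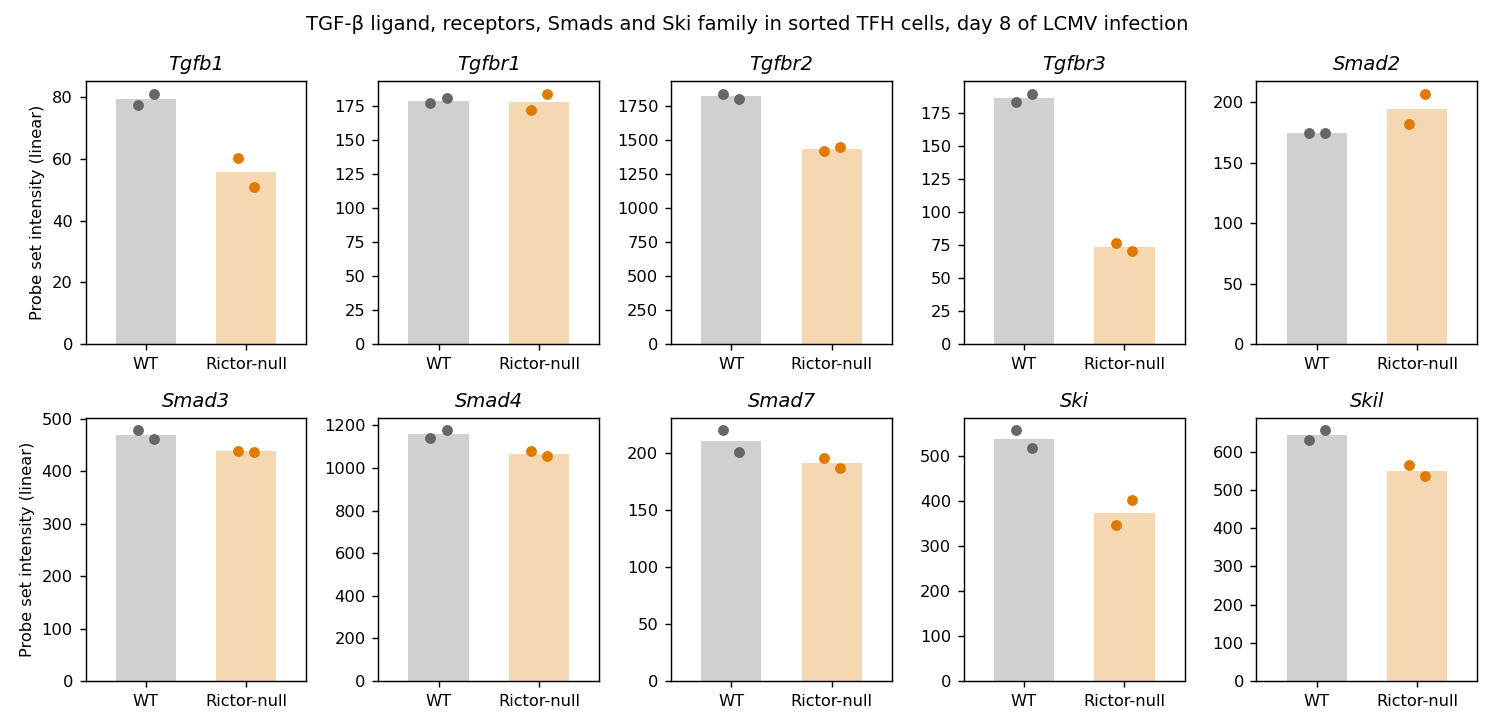
Linear intensity (y axis, from 0, with a scale of its own in each panel) of the brightest probe set of each of the 10 genes in WT (grey) and Rictor-null (orange) TFH cells. Points are arrays and bars are group means over 2 arrays. Tgfbr3 shows the widest gap, with 183 and 190.0 in WT against 76.9 and 70.7 in Rictor-null cells, while the points of Tgfbr1 overlap.

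Of the receptor genes Tgfbr3 and Tgfbr2 fell and Tgfbr1 did not pass. Tgfbr3, the co-receptor gene, was read at an intensity of 76.9 and 70.7 in the Rictor-null arrays and at 183 and 190.0 in the WT arrays. Both WT arrays were far above both Rictor-null arrays. The ratio of the linear means was 2.53-fold in favor of WT, and the log2 difference was -1.17 (standard error 0.07, 95% interval -1.34 to -1.01, adjusted p = 7.94e-07 from limma). This was the 6th largest fall among the 18193 genes. The only other probe set of Tgfbr3 was dim, between 10.1 and 11.8 on all 4 arrays, below the median of 20.2 over all probe sets, and its groups overlapped (log2 difference 0.03, standard error 0.05). The fall of Tgfbr3 therefore rests on 1 probe set.

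Tgfbr2, encoding the receptor that binds ligand first, was read at 1420.0 and 1447 in the Rictor-null arrays and at 1843 and 1800.3 in the WT arrays. The groups did not overlap, and the arrays within a group lay close together. Tgfbr2 was 1.27-fold higher in WT by linear means, with a log2 difference of -0.34 (standard error 0.04, 95% interval -0.44 to -0.25, adjusted p = 0.000112 from limma). Its other probe sets did not pass. One read 49.8 and 48.9 against 44.6 and 56.6, with overlapping groups and a log2 difference of -0.022, and the other read between 4.87 and 6.66, under the median. With the mean of all 3 probe sets the log2 difference was -0.13 and Tgfbr2 no longer passed (adjusted p = 0.191 from limma).

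Tgfbr1, encoding the kinase that phosphorylates Smads, was at 172 and 184 in the Rictor-null and at 177 and 180.4 in the WT arrays. The WT values fell between those of the Rictor-null arrays. Its log2 difference was -0.0070 (95% interval -0.15 to 0.14, adjusted p = 0.964 from limma). Its 2 other probe sets were dim, between 5.18 and 11.4. Whether Tgfbr1 and Tgfbr2 differed in their change was not tested.

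The ligand gene Tgfb1 was lower in 1 of its probe sets. The brightest read 60.3 and 51.1 in the Rictor-null arrays and 77.4 and 81.2 in the WT arrays. These groups did not overlap, and the log2 difference was -0.41 (standard error 0.09, 95% interval -0.61 to -0.22, adjusted p = 0.00541 from limma). The other probe set was as bright, with a mean of 67.0 over the 4 arrays against 67.5, and read 54.9 and 68.8 in the Rictor-null against 87.5 and 57.0 in the WT arrays. There the arrays of both groups overlapped, and the log2 difference was -0.16 (95% interval -0.50 to 0.17, adjusted p = 0.59 from limma over all probe sets). The call for Tgfb1 thus depended on which of these was taken. It also ended without Rictor-null replicate 2 (adjusted p = 0.0511), without WT replicate 1 (adjusted p = 0.0716) and without WT replicate 2 (adjusted p = 0.103, all from limma).

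None of the Smad genes passed, and their estimates were small. Smad4, the common partner of receptor-activated Smads, was at 1079 and 1056 in the Rictor-null and at 1139 and 1177 in the WT arrays, so that the groups did not overlap. Its log2 difference was -0.12 (95% interval -0.21 to -0.017, adjusted p = 0.102 from limma). The other 2 probe sets of Smad4 also had all Rictor-null values below all WT values, at log2 differences of -0.10 and -0.14, and did not pass either (adjusted p = 0.257 and 0.187 from limma over all probe sets). After quantile normalization Smad4 passed at a log2 difference of -0.14 (adjusted p = 0.0454 from limma). These 3 probe sets read the same mRNA on the same arrays and are no independent replicates.

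Smad3, which relays the signal to DNA, was at 439 and 437 against 478 and 462. The groups lay apart by little more than the spread within WT, and the log2 difference was -0.10 (95% interval -0.21 to 0.016, adjusted p = 0.244 from limma). Its dimmer probe sets read from 13.2 to 18.8 and had log2 differences above 0. Smad2, the other receptor-activated Smad gene, was the 1 member with an estimate above 0, at 182 and 207 in the Rictor-null and 175 and 174 in the WT arrays. The Rictor-null arrays differed more from each other than the nearer of them did from WT. Its log2 difference was 0.14 (95% interval -0.016 to 0.30, adjusted p = 0.219 from limma), and its second probe set read 25.5 to 33.9 with overlapping groups.

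Smad7, a gene that TGF-β itself induces as a brake, was at 195 and 186 in the Rictor-null and at 220 and 200.2 in the WT arrays. The groups did not overlap, though the gap between them was smaller than the spread within WT. Its log2 difference was -0.13 (95% interval -0.27 to 0.02, adjusted p = 0.24 from limma), and its other probe set was dim. Without overlap were 9 of the 10 members, 8 of them lower in Rictor-null cells, but with 2 arrays a group the arrays were also apart for 55.5% of all genes.

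The co-repressor genes Ski and Skil were both lower in Rictor-null cells. Ski was at 346 and 404 in the Rictor-null arrays and at 558 and 518 in the WT arrays. All WT values were above all Rictor-null values, and WT was 1.43-fold higher by linear means. The log2 difference was -0.51 (standard error 0.07, adjusted p = 0.000249 from limma). A second bright probe set of Ski read 238 and 208 against 264 and 274. It also lay apart, at a log2 difference of -0.26 (95% interval -0.43 to -0.09), and came close to the threshold without passing (adjusted p = 0.0555 from limma over all probe sets). Without WT replicate 1 the brightest probe set missed the threshold as well (adjusted p = 0.051 from limma).

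Skil, encoding SnoN, was at 565 and 535 in the Rictor-null and at 631 and 656 in the WT arrays. The groups were apart, and the difference was small at -0.22 on the log2 scale (standard error 0.05, adjusted p = 0.0098 from limma), or 1.17-fold by linear means. The other probe set of Skil read between 18.7 and 23.7, near the median of all probe sets, and its groups overlapped. The call for Skil ended without Rictor-null replicate 2 (adjusted p = 0.0542), without WT replicate 1 (adjusted p = 0.0825) and without WT replicate 2 (adjusted p = 0.153, all from limma). Only Tgfbr3 and Tgfbr2 passed with every one of the arrays left out in turn. The count of lower members was 5 without Rictor-null replicate 1, 3 without Rictor-null replicate 2, 2 without WT replicate 1 and 3 without WT replicate 2.

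**Figure D2:**
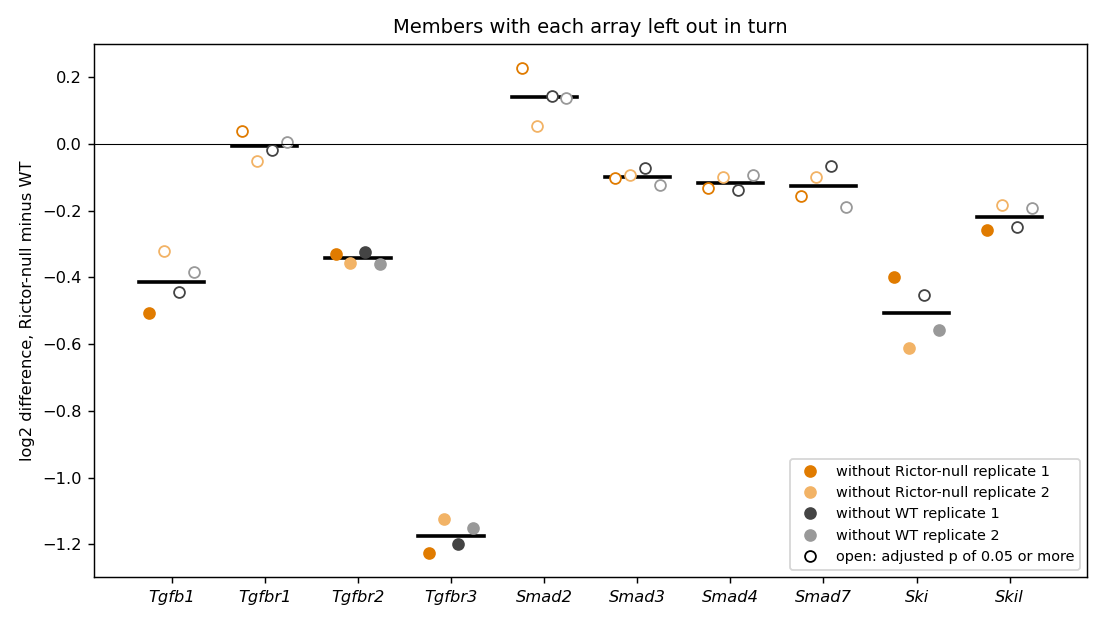
Log2 difference, Rictor-null minus WT (y axis, log2 of intensity + 16), of each gene with all arrays (black bar) and with each array left out (points). Filled points lie under the threshold of limma's adjusted p and open points do not. Log2 differences of Tgfbr3 stayed between -1.22 and -1.12 and Tgfbr2 between -0.36 and -0.33, while Tgfb1 and Skil have 1 filled point each.

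Over all 24 probe sets, 17 were above the median of all probe sets and 7 were at or below it. In a fit of all 45037 probe sets together, 5 of the 17 passed as lower and 0 as higher, and 0 of the 7 dim ones passed. A share for all probe sets above the median alone was not computed. Of the 24 member probe sets 5 passed in either direction, against 11.0% of all probe sets in that fit, dim ones included. The 5 that passed were the brightest of Tgfbr3, Ski, Tgfb1, Tgfbr2 and Skil. Thus no call for a member came from a second probe set, and for 4 of these genes (all but Ski) the other probe sets were close to 0 or wide in their interval.

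**Figure D3:**
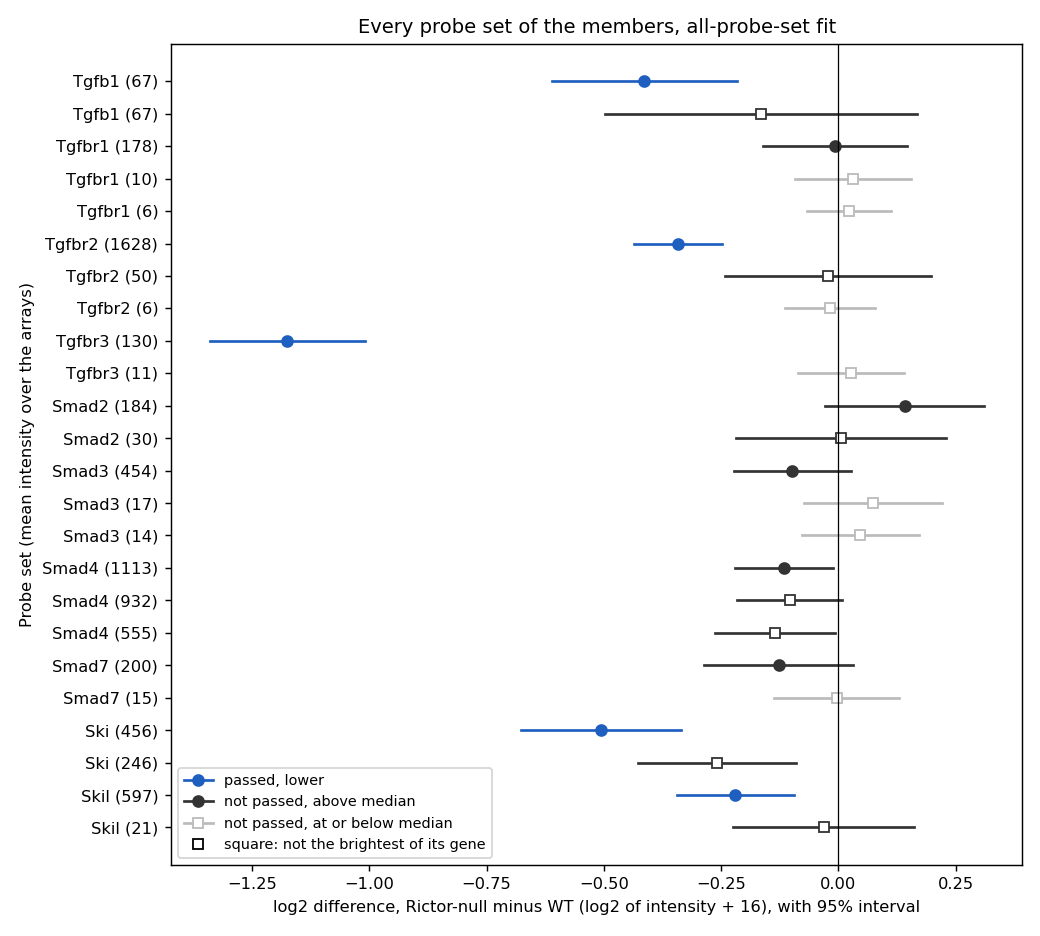
Log2 difference with its 95% interval (x axis, Rictor-null minus WT) of every probe set of the 10 genes, from the fit of all probe sets, with the mean linear intensity in brackets. Circles are the brightest probe set of a gene and squares the others; blue passed as lower, black did not pass, and grey did not pass and lay at or below the median intensity. The 5 blue intervals lie below 0, and the 3 probe sets of Smad4 line up between -0.14 and -0.10.

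Other genes of the pathway were taken from lists of 127 genes, of which 122 were measured. Of these, 20 were lower, 21 were higher and 81 did not pass, against 7.19% lower and 12.5% higher of all genes. Above the median intensity were 90 of the 122, of which 19 were lower and 20 higher. These 19 and 20 come from the fit of all genes. When the 10695 genes with a probe set above the median were fitted alone, 22 pathway genes were lower and 22 higher. Of all genes in that fit 13.9% were lower, and 2484 of the 10695 were higher. List counts near these shares, such as those of the ligands and of the other receptors, are no result about the list. Among further ligands and genes that handle latent TGF-β, 2 of 19 were lower and 0 were higher, with a median log2 difference of -0.04. Tgfb3, a second isoform of the ligand, was at 37.9 ± 3.39 in Rictor-null and 52.6 ± 3.54 in WT cells (SD, n = 2 each), a log2 difference of -0.35 (adjusted p = 0.0137 from limma). Itgav, the αv integrin chain that with a β chain activates latent TGF-β, had a log2 difference of -0.22, although a second probe set above the median intensity had one of 0.10 and did not pass. Itgb8, the β chain of αvβ8, was dim in all arrays, at 9.14 to 11.9.

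Among other receptors of the family only Acvr1b passed, which left 12 of 13 not passing and a median log2 difference of 0.0047. Acvr1b encodes the activin type I receptor ALK4, which phosphorylates Smad2 and Smad3 as TGFBR1 does. It was at 62.4 and 73.8 in the Rictor-null arrays and at 113 and 115 in the WT arrays. The groups were far apart, and the log2 difference of -0.63 (standard error 0.09, adjusted p = 0.000217 in the limma fit) passed with each array left out. Its partner Acvr2a was at 52.9 and 49.8 against 43.5 and 38.2 and did not pass (log2 difference 0.25, adjusted p = 0.069 from limma).

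Of the other Smads and Smad partners, 3 of 17 were lower and 1 was higher, with a median log2 difference of -0.04. Both lower acetyltransferase genes encode co-activators that Smads recruit. Crebbp was at 429 ± 27.4 against 605 ± 33.6 and Ep300 at 492 ± 3.16 against 586 ± 1.80 (SD, n = 2 each, Rictor-null against WT), with log2 differences of -0.48 and -0.24 (adjusted p = 0.000125 and 0.00386 from limma). Runx1, a Smad-binding transcription factor gene, had a log2 difference of -0.24. Zeb2, encoding a Smad-binding repressor that also drives terminal effector differentiation, rose from 44.8 ± 5.27 in WT to 85.3 ± 9.64 in Rictor-null cells (SD, n = 2 each), a log2 difference of 0.74 (adjusted p = 0.000168 from limma). The Smads of the bone morphogenetic protein branch did not pass. The log2 difference of Smad1 was -0.21 and that of Smad5 0.09, while Smad6 and Smad9 were below the median intensity.

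Of 22 regulators of receptors and Smads, 5 were lower and 1 was higher, with a median log2 difference of -0.14. Rnf111, encoding the ubiquitin ligase Arkadia that marks Smad7, Ski and SnoN for degradation, had a log2 difference of -0.22 (adjusted p = 0.0111 from limma). Fkbp1a, whose product FKBP12 holds the type I receptor inactive, had a log2 difference of -0.19, and Ppp1r15a, which recruits a phosphatase to that receptor with Smad7, one of -0.21. Peli1, a ubiquitin ligase gene, had a log2 difference of -0.17 and Dab2, an adaptor gene, one of -0.23, the latter from a probe set below the median intensity. Usp15, encoding a deubiquitinase that stabilizes the type I receptor, was higher at a log2 difference of 0.33 (adjusted p = 0.0101 from limma), a call that ended with the mean of all its probe sets (then 0.10). The Smurf ubiquitin ligase genes did not pass, with log2 differences of -0.05 for Smurf1 and -0.15 for Smurf2.

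In the branch that signals without Smads, 4 of 13 were lower and 1 was higher, and the median log2 difference was -0.06. Nlk, a kinase gene downstream of TAK1, had a log2 difference of -0.33 (adjusted p = 0.000606 from limma), and all 3 of its probe sets above the median intensity lay below 0. The small GTPase gene Rhoa had a log2 difference of -0.20, its effector kinase gene Rock1 one of -0.17 and the TAK1 adaptor gene Tab2 one of -0.16. For Rhoa and Rock1 1 and 2 other bright probe sets lay on the other side of 0 without passing. Mapk8, encoding JNK1, was higher at a log2 difference of 0.23 (adjusted p = 0.0429 from limma), with 1 probe set on the other side. Map3k7, encoding TAK1 itself, had a log2 difference of -0.06 and did not pass.

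**Figure D4:**
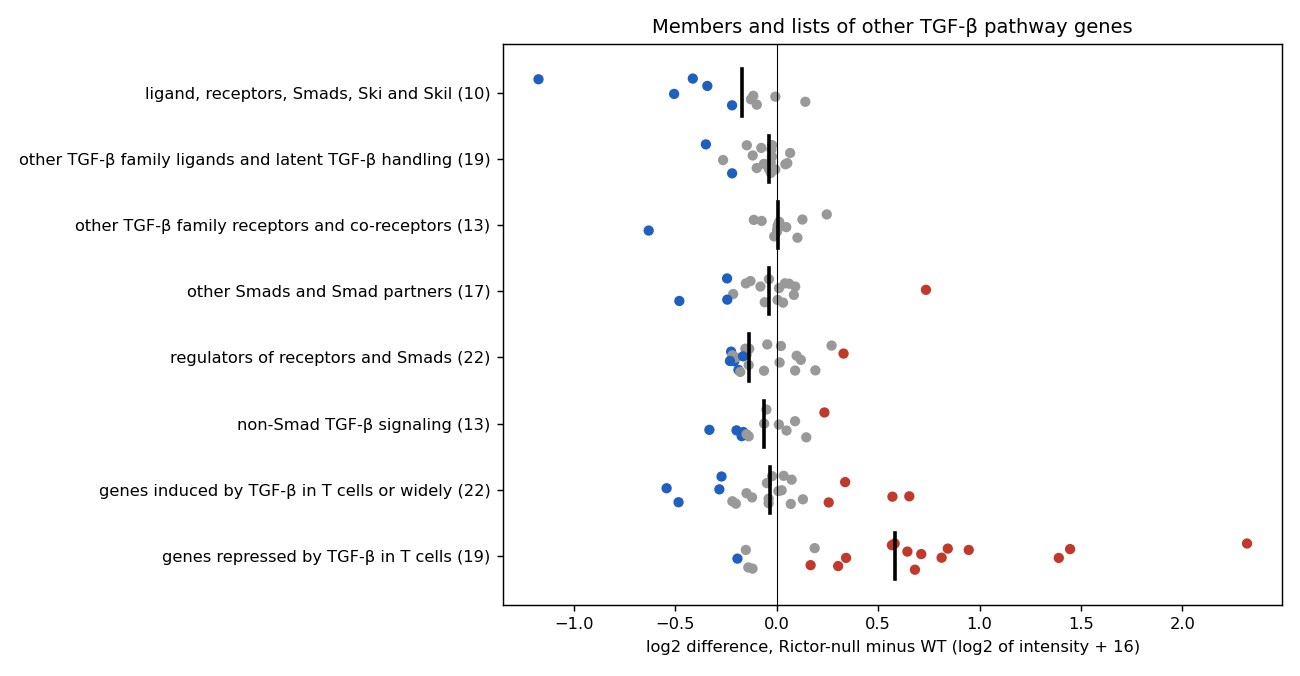
Log2 difference (x axis, Rictor-null minus WT, log2 of intensity + 16) of the 10 genes and of each measured gene in 7 lists, with the number measured in brackets. Blue points passed as lower, red as higher and grey did not pass, and the black bar is the median, which runs from -0.17 for the 10 genes to 0.58 for genes that TGF-β represses.

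Genes that TGF-β is known to induce moved in both directions. Of 22 measured, 4 were higher and 4 lower, with a median log2 difference of -0.03, and Itgae, Foxp3, Tgfbi, Pmepa1 and Id1 were at or below the median intensity, where a change is hard to see. Nt5e, encoding the ectoenzyme CD73, was at 357 ± 3.74 in Rictor-null and 527 ± 15.8 in WT cells (SD, n = 2 each), a log2 difference of -0.54 (adjusted p = 2.33e-05 from limma). The AP-1 gene Junb had a log2 difference of -0.48 and Id3, whose product blocks E proteins, one of -0.28. Among the higher genes, by log2 difference, were Bhlhe40, a transcription factor gene, at 0.57, the cell cycle inhibitor gene Cdkn1a at 0.34 and the chemokine receptor gene Cxcr6 at 0.65. Cxcr6 was at 957 in Rictor-null replicate 1 and at 1790.1 in replicate 2, against 845 and 808 in WT, and without Rictor-null replicate 2 its log2 difference was 0.21.

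Genes that TGF-β is known to repress in T cells were mostly higher. Of 19, 14 were higher, 1 was lower and 4 did not pass, with a median log2 difference of 0.58. This list is made largely of effector and cytotoxic genes whose rise was known from earlier results of these arrays when it was written, so that its count is no independent evidence. The 6 largest differences were those of Gzma, Klrk1, Klrg1, Cx3cr1, Il2 and S1pr5. Il2, the gene of a cytokine that TGF-β restrains, was at 136 and 133 in the Rictor-null arrays and at 64.8 and 71.2 in the WT arrays. The groups were far apart, at a log2 difference of 0.84 (adjusted p = 1.48e-05 from limma). The lower gene was Klf2 at a log2 difference of -0.19, and Tbx21, Gata3, Myc and S1pr1 did not pass, with log2 differences from -0.15 to 0.19.

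Markers of other cells were set beside these results. As background for the marker counts here and in the next paragraph, 7.19% of all genes were lower and 12.5% higher. Foxp3, which defines regulatory T cells, was between 7.35 and 10.9 on all arrays, and of 9 regulatory T cell markers 2 were lower and 3 higher, with summed intensities of 3442 and 3455 in the Rictor-null and 3717 and 3721 in the WT arrays. Il2ra was higher in Rictor-null cells but at 17.4 to 21.2 against 11.0 to 12.0, around or under the median of all probe sets. Of 9 naive T cell markers, 4 were lower and 2 higher, and their sums were 5987 to 6031 against 6079 to 6155. The defining platelet genes Pf4 and Ppbp were at 5.12 to 10.7, and of 9 platelet markers only Itgb3 passed, as higher, with sums of 382 to 384 against 311 to 317. Of 10 stromal and endothelial markers 0 passed, with sums of 267 to 281 against 263 to 270.4.

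Myeloid markers moved with the groups, with sums of 1149 to 1260 in the Rictor-null against 814 to 858 in the WT arrays. Of the 10, 5 were higher and none was lower in Rictor-null cells, against 12.5% and 7.19% of all genes. Of the CD8 T cell and NK cell markers 2 of 8 were higher and 2 lower, with sums of 945 to 982 against 528 to 533. Most of these sums came from Fcgr2b, at 772 and 748 in the Rictor-null and 363 and 371 in the WT arrays. Fcgr2b is an Fc receptor gene not particular to these cells, so that the sums need not follow CD8 T or NK cells. Cd8b1, encoding the CD8 β chain, was higher, at 139 and 123 in the Rictor-null and 90.1 and 82.2 in the WT arrays (log2 difference 0.53, adjusted p = 0.000605 from limma), while Cd8a was at 23.7 to 25.2 with overlapping groups. The lower ones were Klra1 and Klrc2, which read 4.69 to 7.52, under the median of all probe sets. Of 9 B cell markers 2 were higher, Cd79b and Pax5, and 8 of the 9 were at or below the median intensity. All 9 cell cycle markers were higher, with sums of 2985 to 3004 against 1994 to 2073. The TFH markers summed to 10423 to 10447 against 13340 to 13761. The part of these shifts in the differences of the 10 genes was not tested.

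The genes whose profile over the 4 arrays came closest to that of Tgfbr3 were Coro2b, Rnf144a, Sox4, Ddit4 and Ccr6. Their Euclidean distances from Tgfbr3, over 4 log2 values each centred on its own mean, ran from 0.0984 for Coro2b to 0.221 for Ccr6. All 5 were lower in both Rictor-null arrays than in both WT arrays, with log2 differences from -1.36 to -1.01. With 2 arrays a group, this closeness mostly restates a like difference between groups. No other member was among the 5.

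Of the 31 pathway genes named as passing, 18 lost the call without at least 1 array and 13 kept it. The 13 were Acvr1b, Crebbp, Zeb2, Nlk, Nt5e, Junb, Bhlhe40, Gzma, Klrk1, Klrg1, Cx3cr1, Il2 and S1pr5. Calls were lost for 7 genes without Rictor-null replicate 1, for 5 without Rictor-null replicate 2, for 17 without WT replicate 1 and for 18 without WT replicate 2. Among the 18 were Tgfb3, Ep300, Runx1, Rnf111 and Usp15, and without WT replicate 2 their adjusted p from limma ran from 0.0739 to 0.147.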

How the data were processed

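Biotinylated cRNA from sorted TFH cells was hybridised to 1-colour Affymetrix mouse arrays by a company. The authors deposited intensities on a linear scale. MAS5 and RMA are both named in their notes, without a version or the role of each. Near-equal medians show that arrays had been scaled. No scan dates or detection calls were analysed here, so that batches could not be tested.

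Genes were named from the platform annotation. Of 45037 probe sets, 34945 have 1 symbol, 932 have several and 9160 have none there. Entrez numbers, found for 34741 in RefSeq (GRCm38.p6), changed 0 symbols. Values became log2(intensity + 16), which understates the change of dim genes. Groups came from the sample titles, and limma 3.58.1 (R 4.3.3) compared them (eBayes with a trend, all 4 arrays, no block). Adjustment was over 18193 genes, or over all probe sets where stated. The fit was tested on simulated data. The labels call the samples biological replicates, each a pool of mice, so that p-values measure the spread between pools, and the number of arrays limits the precision.

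Members, lists and tests were chosen with earlier results of these data known. Genes named are the members, up to 6 called genes per list, other receptors and Smads in the lists, and the 5 nearest Tgfbr3. Itgb8, Klf2, Smurf1, Smurf2, Map3k7, those not passed among the repressed genes and the induced genes at low intensity were named after their values were seen. Alternatives were the pseudocount, scaling, dim probe sets, averaging of probe sets, the trend, the replicate block, each array left out, the methods' t-test and adjustment over all probe sets. Background correction could not be varied on processed values.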

Additional observations from a re-analysis of the deposited data

How the results depend on the processing

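Of 140 comparisons of a member with its main value, 119 kept direction and side of the threshold, 14 lost the call, 3 gained one and 4 turned in direction. The turns were those of Tgfbr1 (0.0154 with the mean of all probe sets, 0.0374 without Rictor-null replicate 1 and 0.0053 without WT replicate 2, with values from -0.0514 to 0.0374 over the arrays left out) and Smad3 (0.0076 with the mean of all probe sets), and both were close to 0 and not called. With the mean of all probe sets, 3 members, 13 pathway genes and 842 genes were lower. With an array left out, 2 to 5 members and 6 to 18 pathway genes were lower, and 457 to 1048 genes were lower and 930 to 2000 higher. By the one-tailed test of the study's methods 2231 genes were lower and 3143 higher unadjusted. After Benjamini-Hochberg adjustment it called 0 members, 0 pathway genes lower, 0 higher, and 3 genes lower and 3 higher, where limma calls 5 members, 20 and 21 pathway genes, and 1308 and 2283 genes. Unadjusted it called 7 members as lower.

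With the replicate block 5 members were lower and 0 higher, as without it, and it changed no other call among the members. The labels share only a number, and deviations of arrays with 1 number correlated at -0.0954. The median log2 difference of all genes was 0.0068 as deposited, -0.0039 with median centred arrays and 0.0041 after quantile normalization. For 36 named pathway and neighbor genes, 503 comparisons gave 396 without change of call, 107 lost calls and 0 turns. The cause of these changes was not tested. Precision is limited by 2 arrays a group, and intensities under the median carry little information on change.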
